A study of Rattus norvegicus with 3 samples.

Results

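Peaks of the linker histone HILS1 were examined at 7 long rat genes, Lrp1b, Cntnap5b, Grm8, Necab1, Galntl6, Dpyd and Sugct, whose introns hold many peaks in LINE-1 repeats. The members were chosen by name, as every peak in the deposited list whose nearest start site belongs to 1 of 9 gene names: these 7 and Mir592 and Tmem55a, which name peaks inside Grm8 and Necab1. That gave 290 of 32731 peaks (0.886%). HILS1 ChIP sequencing was done in 2 replicates, and 1 input library was the control. All libraries came from testis nuclei of rats (Rattus norvegicus) of 50 to 60 days, labelled as elongating/condensing spermatids, with no genotype or treatment given. The list holds regions shared by both ChIP replicates and gives a single value per peak, so there is no spread between replicates, and the labelled cell type could not be checked against markers. Fold enrichment is a linear ratio from MACS that sets a called peak's height against its background, and every segment into which a called peak was divided carries the same fold. Because the genes were chosen from these same peaks, their counts, shares and folds are a description, with no test. Intervals are 95% intervals, and cover counting error only. They take segments of the same called peak as separate values, so they are likely too narrow.

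LINE-1 elements are retrotransposons that copy themselves through an RNA intermediate, and they are common in the introns of long genes. A full-length element holds a promoter and the reading frames for its own reverse transcription, while many copies are cut short at the 5′ end. HILS1 is a linker histone made in spermatids, in the stage when histones give way to transition proteins and protamines. L1_Rn, L1_Rat1, L1_Rat2 and RNHAL1 are names that the repeat annotation gives to groups of rat LINE-1 copies.

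Mir592 lies within Grm8, and its start site was the nearest for 26 peaks, of which 25 lay in Grm8 introns and 1 was intergenic. Its mature sequence is shown because it is the small RNA gene behind most peak names at Grm8. The sequence is from RefSeq (GRCr8, chromosome 4), with the seed, bases 2 to 8, in capitals.
rno-miR-592: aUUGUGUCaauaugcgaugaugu
The name marks only which start site was closest. The 25 intronic peaks were in LINE-1 repeats of Grm8, and the intergenic one was also in LINE-1.

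By nearest gene name, Cntnap5b had 116 peaks, Galntl6 43, Sugct 31, Lrp1b 29, Mir592 26, Dpyd 18, Necab1 13, Tmem55a 12 and Grm8 2. Of the 290 peaks, 164 were intronic and 126 intergenic, beside 13.9% intronic peaks in the whole list. None lay in an exon, a promoter, a UTR or at a transcription end, where the whole list had 65 peaks (0.199%). LINE-1 repeats held 243 of the 290 (83.8%), beside 77.6% of the whole list. They held 157 of the 164 intronic peaks (95.7%, interval 91.5 to 97.9%), beside 88.1% of all intronic peaks. They held 86 of the 126 intergenic peaks, beside 76.1% of all intergenic peaks. The genes were picked for such peaks, so nothing is read from these shares.

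L1_Rn was the commonest name, with 105 of the 157 intronic LINE-1 peaks (66.9%, interval 59.2 to 73.8%), against 48.9% of the 3846 intronic LINE-1 peaks elsewhere in the list and 49.6% of all of them together. L1_Rat1 named 40 (25.5%, against 31.4% elsewhere; 31.2% of all), RNHAL1 9 (5.73%, against 11.8%; 11.6% of all) and L1_Rat2 3 (1.91%, against 3.28%; 3.22% of all). By called peak, L1_Rn was in 66 of 108, against 1234 of 2792 elsewhere. The mix of names differed from gene to gene. L1_Rn named 20 of 22 LINE-1 peaks in Necab1 and 20 of 23 in Lrp1b, but 14 of 24 in Galntl6 and 8 of 16 in Dpyd. These counts leave out peaks inside a gene that carry a neighbour's name. With those added, L1_Rn named 18 of 40 in Galntl6 and 13 of 21 in Dpyd. All 3 L1_Rat2 peaks of the 157 were in Grm8, and 6 of the 9 RNHAL1 peaks were in Sugct. A further 3 L1_Rat2 peaks lay in Galntl6 intron 7 under a neighbour's name.

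**Figure D1:**
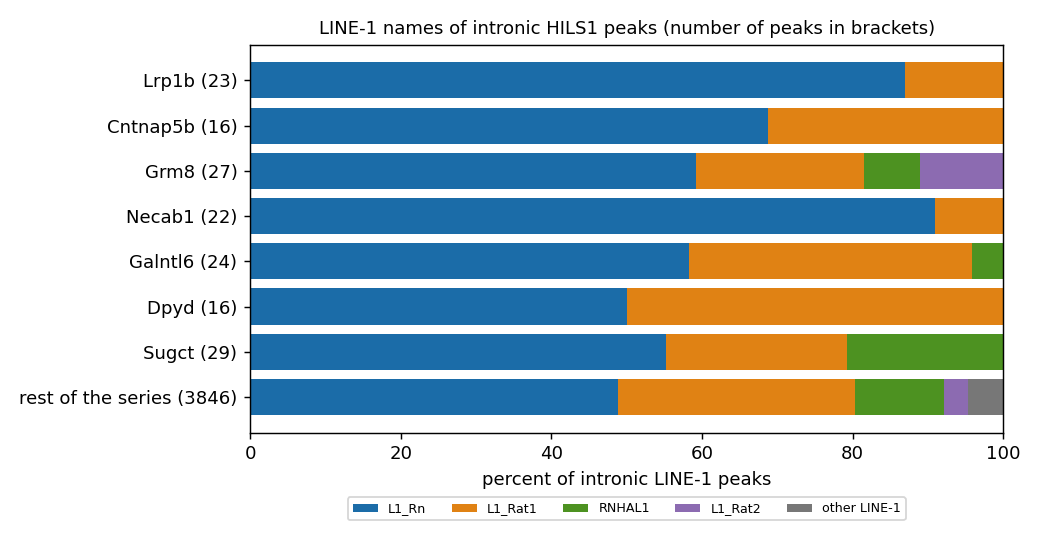
Percent of intronic LINE-1 peaks by repeat name (x axis) in each of the 7 genes, for peaks with a member name. All other intronic LINE-1 peaks of the list are in the bottom bar, among them those inside Galntl6 and Dpyd with a neighbour's name. L1_Rn takes the largest part in every bar but that of Dpyd, where L1_Rn and L1_Rat1 have 8 peaks each.

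The median fold of the 157 intronic LINE-1 peaks was 4.98 on the log2 scale (interval 4.84 to 5.06), against 4.80 (4.75 to 4.80) for the 3846 elsewhere. Their median length was 791 bp, against 811 bp elsewhere. Of the 157, 81 were segments of divided called peaks, which repeat the same fold, against 1803 of the 3846. A median over called peaks is not given for these sets, so nothing is read from the difference in median fold. Within the genes, peaks in L1_Rn had a higher median fold than peaks in L1_Rat1 in 6 of 7 genes, a comparison added after the values were seen. Over all 7 genes the medians were 33.3 for L1_Rn and 22.7 for L1_Rat1. Elsewhere in the list they were 31.5 and 25.0. In Dpyd the medians stood at 38.9 for L1_Rn and 18.5 for L1_Rat1. In Sugct the order was the other way, 25.0 for L1_Rn and 35.2 for L1_Rat1, where 4 of the 7 L1_Rat1 peaks are segments of 1 called peak. With each called peak counted once, the Sugct medians were 22.2 and 23.2, and the order was the same in 6 of 7 genes. Over all 7 genes the medians so counted were 31.5 for L1_Rn and 20.4 for L1_Rat1, and elsewhere 28.7 and 23.2.

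**Figure D2:**
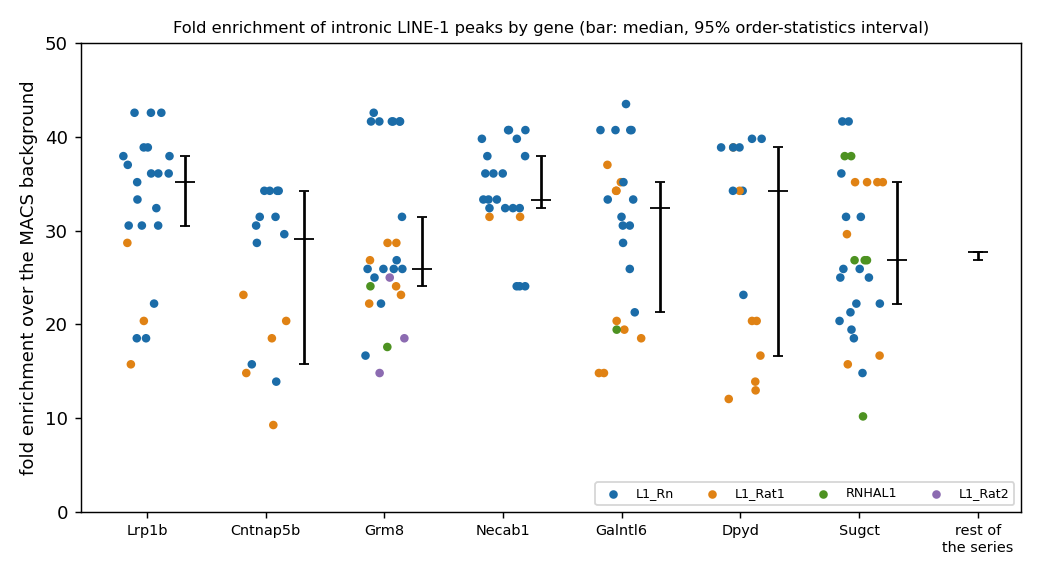
Fold enrichment (y axis, linear) of each intronic LINE-1 peak by gene, coloured by LINE-1 name, with the median and its 95% order-statistics interval as a bar; the last column gives only the median and interval of all other intronic LINE-1 peaks. Necab1 peaks lie between 24.1 and 40.7, while those of the other genes reach down to 15.7 or less.

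Lrp1b encodes a large receptor of the LDL receptor family. Its 23 intronic peaks were all in LINE-1, with a lowest fold of 15.7, a median of 35.2 and a highest of 42.6. Their median length was 800 bp. They lay in 7 of 88 introns: 5 each in introns 2 and 5, 4 each in introns 3 and 43, 2 each in introns 7 and 41, and 1 in intron 1. The first was centred 185 kb and the last 1786 kb downstream of the start site, with a stretch of 580 kb between 1120 and 1700 kb that held no peak. The highest intronic fold was that of 3 L1_Rn segments in intron 43, which together span 6435 bp of chromosome 3 (rn5). The longest of them, from 30799888 to 30803616, measured 3728 bp. The lowest fold was an L1_Rat1 peak of 800 bp in intron 7. A further 6 peaks were intergenic, among them 4 L1_Rn segments of 1 called peak centred at -31704 to -26542 bp from the start site, whose fold of 52.8 was the highest of the 290.

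Grm8 encodes a metabotropic glutamate receptor. Its introns held 27 peaks, all in LINE-1, at folds of 14.8 to 42.6 with a median of 25.9. Introns 6 and 8 of 9 carried 10 and 9 of them, and introns 1, 2, 5 and 7 had 4, 1, 2 and 1. The intronic peak nearest to its gene's start site among the 7 genes, centred 9.02 kb downstream, was the RNHAL1 peak in Grm8 intron 1. In intron 8, 5 L1_Rn segments made 1 called peak of 4847 bp with a fold of 41.7 (54239887 to 54244734 on chromosome 4). The neighbouring segments there were as near as 25 bp to each other. The lowest fold, 14.8, was an L1_Rat2 peak in intron 6.

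Necab1 encodes a neuronal EF-hand calcium-binding protein, and Tmem55a, a phosphatidylinositol 4,5-bisphosphate phosphatase, had the nearest start site for 12 of its intronic peaks. The gene had the closest packing of the 7, with 22 intronic peaks centred between 54.7 and 207 kb from the start site. Over the whole stretch from the start site to the last intronic peak, this was 10.6 per 100 kb, with 14.1% covered. The other genes had 1.29 to 4.84 per 100 kb by the same measure, with 1.57 to 4.94% covered. The measure also counts intronic peaks under a neighbour's name. The number per 100 kb depends on how called peaks were divided. The 22 Necab1 peaks came from 10 called peaks, and the 31 in Sugct, the next densest gene, from 23. The Necab1 peaks had a lowest fold of 24.1, a median of 33.3 and a highest of 40.7. The median length of 1110 bp was above that of every other gene here. The peaks fell in introns 3, 5, 6, 7 and 9 of 12, with 5, 3, 8, 3 and 3 of them. The 3 segments in intron 7 had the highest fold, all in L1_Rn, and the closest pair of the 290 peaks, 23 bp apart, was among them.

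Galntl6 encodes a member of the GalNAc-transferase family. It had 25 intronic peaks by name, of which 24 were in LINE-1, with a median fold of 33.3 and a range of 14.8 to 43.5. Intron 1 of 11 held 17, intron 3 had 3 and intron 4 had 5. The exception to LINE-1 was a RatSatRep2 peak of 1169 bp in intron 4, a segment of a called peak whose other segments were L1_Rat1, all with a fold of 34.3. Another 16 peaks inside the same transcript were nearest to the start site of Galnt7, 2 in intron 4, 6 in intron 6, 3 in intron 7 and 5 in intron 8, and all were in LINE-1. These 16 are outside the 290 because another start site was nearer. Those in intron 6 were 5 L1_Rat1 and 1 L1_Rn, and those in intron 7 were 3 L1_Rat2. Intron 8 had 2 L1_Rat1 and 3 L1_Rn. Of the 18 intergenic Galntl6 peaks, all in LINE-1, 4 RNHAL1 segments had a fold of 49.1.

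Dpyd encodes the first enzyme of pyrimidine breakdown. All of its 16 intronic peaks were in LINE-1, with folds of 12.0 to 39.8 and a median of 34.3. Introns 10, 13 and 14 of 21 held 4 each, intron 15 held 3 and intron 2 held 1. In intron 13 the longest peak (2952 bp) and the shortest (118 bp, also the shortest of the 290) were both in L1_Rn. Intron 14 had 4 peaks in L1_Rat1, with folds of 13.0 to 20.4. A further 5 peaks in introns 19 and 20 had the start site of Ptbp2 nearest.

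Sugct encodes a glutarate CoA-transferase. All of its 31 peaks were intronic, with folds of 10.2 to 41.7 and a median of 26.9. Intron 10 of 12 held 9, intron 7 held 6, intron 6 held 5, intron 9 held 4, introns 3, 5 and 8 held 2 each and intron 1 held 1. LINE-1 held 29. The other 2 were RatSatRep2 peaks, in intron 6 with a fold of 20.4 and in intron 7 with a fold of 31.5. The lowest fold was an RNHAL1 peak of 248 bp in intron 5, and the highest a pair of L1_Rn segments in intron 9.

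**Figure D3:**
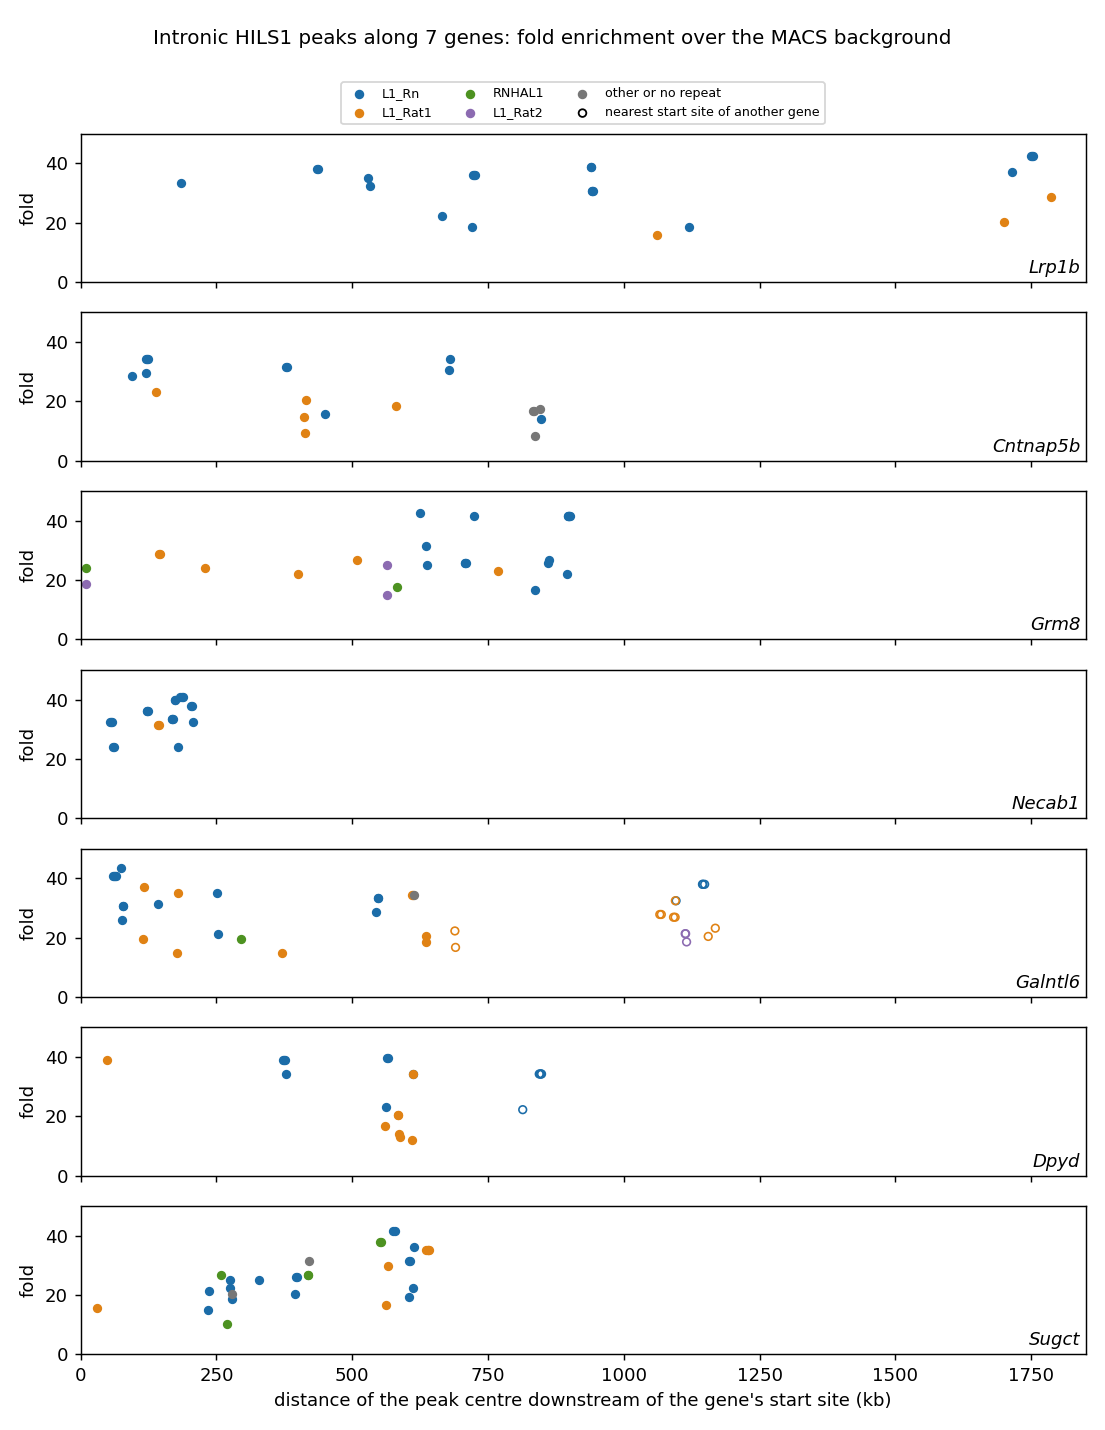
Fold enrichment (y axis, linear) of each intronic peak against its distance downstream of the gene's start site in kb (x axis), 1 panel per gene, coloured by LINE-1 name; open circles are peaks inside the gene whose nearest start site is that of another gene. Necab1 peaks all lie within 207 kb, while those of Lrp1b reach 1786 kb.

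Cntnap5b, of the contactin-associated family of the neurexin superfamily, had the most peaks by name but only 20 in its introns. These had folds of 8.33 to 34.3 and a median of 21.8, the lowest of the 7. For intronic LINE-1 peaks alone the Cntnap5b median was 29.2, above those of Grm8 (25.9) and Sugct (26.9). The 20 peaks fell in introns 1, 4, 7, 8, 12, 13 and 19 of 23, with 6, 2, 3, 1, 1, 2 and 5 peaks. LINE-1 held 16, and all 4 exceptions were in intron 19: 3 with no repeat (folds of 16.7, 16.7 and 17.6) and 1 in the LTR element RNLTR4d_I, whose fold of 8.33 was the lowest of the 290. The other 96 peaks were intergenic. Of these, 58 lay in a stretch of 439 kb (24542382 to 24981394 on chromosome 13, rn5), 1890 to 2327 kb upstream of the start site, which was singled out after the counts were seen. Its lower edge was set at the first peak of a 1 Mb window that was in neither L1_Rn nor RNHAL1, so its LINE-1 share is lowered by that choice. The whole window (24 to 25 Mb) held 64 peaks, of which 25 were in LINE-1 (39.1%), with a median fold of 16.7. In the stretch 19 of 58 peaks were in LINE-1, 11 in RatSatRep1, 9 in LTR elements, 5 in RatSatRep2 and 14 in no repeat, and the median fold was 15.7. Of the remaining 38 intergenic peaks, 37 were in LINE-1, and their median fold was 28.7. The name of the nearest gene therefore joins distant peaks to Cntnap5b, and its total of 116 is no measure of its introns.

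**Figure D4:**
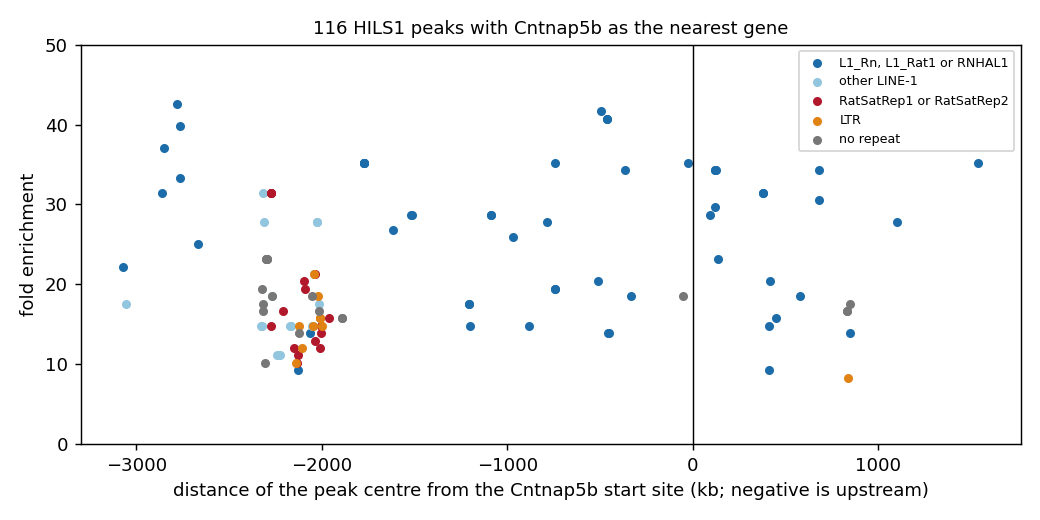
Fold enrichment (y axis, linear) of the 116 peaks named for Cntnap5b against distance from its start site in kb (x axis, upstream negative), coloured by repeat. The dense group 1890 to 2327 kb upstream holds 58 peaks, with satellite, LTR and repeat-free peaks among them, while the intronic peaks lie between 94.5 and 848 kb.

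Many neighbouring peaks were segments of 1 called peak: 129 of the 290, beside 41.9% of the whole list. The 164 intronic peaks came from 113 called peaks, of which 33 had 2 or more segments. These 33 spanned 3227 bp at the median and 6435 bp at most, and 31 of them had a single repeat name. Their median fold was 34.3, against 22.2 for the 80 called peaks with 1 segment. Across the 113 called peaks, fold and covered length had a Spearman correlation of 0.648, given only as a description, with no test, since each point draws both values from the same reads. In the 2792 called intronic LINE-1 peaks elsewhere it was 0.647. Joining peaks less than 6000 bp apart gave 70 intronic runs. The longest, in Necab1, held 9 peaks over 21131 bp, all in L1_Rn.

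**Figure D5:**
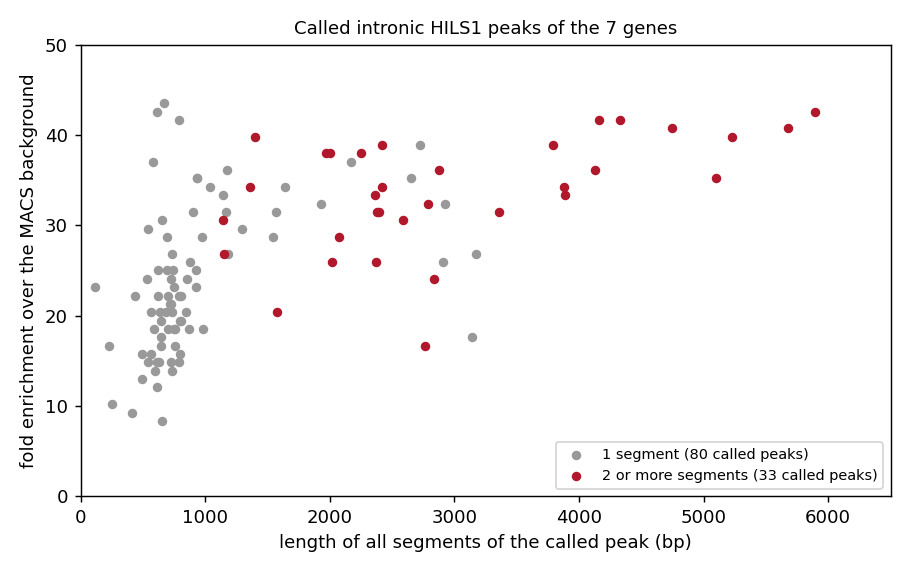
Fold enrichment (y axis, linear) of the 113 called intronic peaks against the summed length of their segments in bp (x axis), with called peaks of 2 or more segments in red. The 33 divided peaks have a median fold of 34.3 and the 80 undivided ones 22.2.

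Among 1282 transcripts with an intronic peak, the median number was 2, and 21 had at least 20, counting every peak inside the transcript whatever its name. The limit of 20 is the smallest count among the 7 genes here, so all 7 were bound to be among these 21. LINE-1 held 80 to 100% of their intronic peaks, against a median of 72.4% and a lowest value of 9.52% in the other 14. Of those 14, 4 also had all their peaks in LINE-1. The 7 genes were picked for LINE-1 peaks in introns, so nothing is read from this contrast.

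Relatives of the 7 genes and other very long genes were counted by every peak inside the gene, whatever its nearest gene name, a choice added after the values were seen, and by the peaks that also carry the gene's own name. The share of all genes with a peak inside is not given here, so nothing is read from the counts of genes. Of 7 other metabotropic glutamate receptors 4 had a peak inside, 21 peaks in all (18 by own name), each in LINE-1: Grm7 had 10, Grm5 7 (4 by own name) and Grm3 3. In Grm7, 4 L1_Rn peaks in intron 7 had a fold of 38.9 and 4 L1_Rat1 peaks in intron 1 had folds of 17.6 to 24.1. Of 6 contactin-associated genes 3 had a peak inside, 23 peaks in all (15 by own name), each in LINE-1. Cntnap5c, on chromosome 13 like Cntnap5b, had 14 of them. Intron 19 of 23 held 5 of these, all L1_Rn, with folds of 12.0 to 31.5. In Cntnap5b, intron 19 also held 5 peaks, but only 1 of them was L1_Rn, and the 5 had folds of 8.33 to 17.6. Cntnap5a, also on chromosome 13, had 8, all in L1_Rn and none by own name, with 4 each in introns 3 and 9 of 10 and folds of 22.2 to 50.0.

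Of 19 GalNAc transferases 5 had a peak inside (4 by own name), 13 peaks in all (11 by own name), and Galnt13 had 8 of them (7 by own name). None of 13 LDL receptor family genes, neither gene of the Necab list and not Tmem55b had a peak inside under either count. Such a result holds only for the transcripts that the annotation of the peaks uses. Dpys, of pyrimidine breakdown, had 1 and Aadat, of lysine breakdown, had 2. Of 40 other very long genes 28 had a peak inside (26 by own name), with 270 peaks in all and 258 in LINE-1 (95.6%), or 173 and 167 (96.5%) by own name. In the whole list LINE-1 held 88.1% of intronic peaks. Galnt13 is among both the GalNAc transferases and the very long genes, so its 8 peaks count in both. By own name Csmd1 had 16, Erbb4 15, Magi2 13, and Nrxn3 and Ctnna2 11 each. Whatever the name, Csmd1 and Erbb4 had 20 each, Nrxn3 18, Ctnna2 15 and Magi2 13. Dlg2 with 19, Prkg1 with 18 and Sgcz with 14, named after their values were seen, had most or all of their peaks under another gene's name, 3, 2 and 0 being their counts by own name.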

How the data were processed

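HILS1 ChIP (2 replicates) and input DNA (1 library) were sequenced by the authors, who trimmed the reads, aligned them uniquely to rn5 with Bowtie2, removed PCR duplicates, called peaks per replicate with MACS, intersected the replicates with bedtools, kept regions of 100 to 4000 bp and annotated them with HOMER. The deposited list gives a fold enrichment (a linear ratio), a false discovery rate in percent and a score (minus 10 times log10 of the p-value) for each called peak, and positions in bp. Which replicate gave these values is not given in the sources used here. Read totals were not used here, so depth is unknown. Because reads were aligned uniquely, copies of a repeat that reads cannot tell apart may be under-represented.

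Peaks were taken by nearest gene name and described by intron, repeat, fold, length and gap, with Wilson intervals for shares and order-statistics intervals for medians, at 95%. The interval and run functions were tested on simulated data. The genes and lists were chosen with earlier results of these data known. Named were every member, the extreme peaks of each gene, peaks outside LINE-1, introns with at least 3 peaks, LINE-1 names with at least 3 member peaks, list genes with at least 3 peaks inside, and the 5 very long genes with the most, ties included; the result of 1 gene is not reported here. Fold by LINE-1 name, called peaks against length and the Cntnap5b stretch were added after the values were seen. Start sites were derived from peak centres and deposited distances. Software: pandas 2.3.3, numpy 2.4.6 and scipy 1.17.1 under Python 3.11.15, with figures by matplotlib 3.10.9.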

Additional observations from a re-analysis of the deposited data

How the results depend on the processing

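The 290 peaks became 130 when peaks less than 6000 bp apart counted once, 164 with intronic peaks only and 174 without Cntnap5b, the gene with the most peaks. The LINE-1 share (83.8%) was 89.1% at a fold of at least 16, 95.7% in introns, 98.3% without Cntnap5b and 96.6% without the dense stretch upstream of it, a choice made after seeing the data whose lower edge was set by repeat name. The intronic share (56.6%) was 62.3%, 82.8% and 70.7% at a fold of at least 16, without Cntnap5b and without that stretch. The L1_Rn share (60.1%) was 66.9% in introns. The median log2 fold (4.75) was 4.59 for the longest segment of each called peak, 4.93 at a fold of at least 16, 4.95 in introns, 4.98 without Cntnap5b and 4.93 without the stretch. The median length (756.5 bp) was 955.5 bp with runs counted once. The median gap (1998 bp) was 14055 bp for the longest segments, 44060 bp for runs and 1084 bp in introns. The difference in median log2 fold, all member peaks minus other intronic LINE-1 peaks, was -0.049, but 0.090 at a fold of at least 16, 0.051 with runs counted once, 0.16 in introns, 0.18 without Cntnap5b and 0.14 without the stretch. It was -0.081 for the longest segments and 0 when peaks with an FDR over 10%, or those shorter than 500 bp, were left out. Its sign thus varied with the setting, it has no test, and the cause was not tested. Counting every peak inside a list gene, chosen after seeing the data, gave 41 list genes with a peak, beside 37 by own name.

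No paired analysis was possible because the list gives 1 value per peak for both replicates together. Leaving out each replicate was not run on this shared list.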

Other observations

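A score of exactly 3100 was given to 20 of the 290 peaks and to 2868 of the whole list, so scores at that value do not rank peaks. The 290 peaks had 42 distinct folds and the whole list 169. A false discovery rate above 10% was given for 11 of the 164 intronic peaks (6.71%), against 341 of the 3846 other intronic LINE-1 peaks (8.87%). The 11 were 3 each in Cntnap5b and Dpyd, 2 each in Grm8 and Sugct and 1 in Galntl6. The 164 include 7 peaks outside LINE-1, while the 3846 are all in LINE-1, so the sets are not fully matched. A fold of at least 30, a limit chosen after the values were seen, was reached by 88 of the 164 intronic peaks (53.7%), against 1488 of the 3846 other intronic LINE-1 peaks (38.7%). Necab1 had 19 of 22 and Grm8 8 of 27. With each called peak counted once, the limit was reached by 45 of 113, against 832 of 2792. The 113 likewise include called peaks outside LINE-1.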
